A study of Mus musculus with 6 samples.

Results

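The genes of the tissue factor pathway and of plasminogen activation were followed in mouse hearts sampled during endotoxemia. They were 9 of the 22815 genes with a symbol on the array (F3, Tfpi, Tfpi2, Plat, Plau, Plaur, Serpine2, Anxa2 and S100a10), chosen by name. They were read through every probe whose transcript accession maps to one of these symbols, which gave 14 of 56237 kept probes. All mice were C57BL6 males of 10 weeks that had gone without food for 16 h, and all were given lipopolysaccharide (LPS), the bacterial endotoxin, at 20 mg/kg into the peritoneum. The rhTM group (3 mice) was treated with recombinant human thrombomodulin, the receptor by which endothelium turns thrombin to protein C activation, at 3 and 24 h after LPS. The saline group (3 mice) received saline at the same times, and heart RNA was taken at 30 h and hybridised to 1 Agilent array per mouse. The dose of rhTM is not given in the sources used here, and no heart without LPS was analysed here. Each value therefore compares hearts given rhTM with hearts given saline, all after LPS.

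Tissue factor, encoded by F3, starts blood clotting by binding factor VIIa at the cell surface, and tissue factor pathway inhibitor, encoded by Tfpi, shuts that complex down. Clots are dissolved by plasmin, which is cut from plasminogen by the tissue-type activator (Plat) or the urokinase-type activator (Plau). Urokinase is held on cells by its receptor (Plaur), plasminogen activation on cell surfaces is aided by the annexin A2 and S100A10 complex (Anxa2, S100a10), and serpins such as nexin-1 (Serpine2) block the activators. LPS is known for inducing F3 in vessels and leukocytes.

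RefSeq promoter windows of build GRCm38.p6 were matched for 6 of the 9 genes, and not for Plat, Plau or S100a10. The 250 bases before the transcript start are shown for F3, Plaur and Anxa2. The F3 level lay higher with rhTM, and those of Plaur and Anxa2 lay lower. None of these differences reached an adjusted p under 0.05 (limma, group alone). Capitals mark matches on either strand. They belong to the AP-1 site, spelled TGANTCA, to the so-called GC box, which is spelled GGGCGG, or to the TATA box of many promoters, which is spelled TATAAA. The F3, Plaur and Anxa2 windows lie on the plus strand at chr3:121723287-121723536, chr7:24462233-24462482 and chr9:69453433-69453682.
F3: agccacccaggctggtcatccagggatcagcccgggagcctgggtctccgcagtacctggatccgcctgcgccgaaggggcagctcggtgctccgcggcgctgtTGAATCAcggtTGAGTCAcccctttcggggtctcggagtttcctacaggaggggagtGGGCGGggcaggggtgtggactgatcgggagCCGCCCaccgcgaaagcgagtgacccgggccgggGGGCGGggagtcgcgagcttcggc
Plaur: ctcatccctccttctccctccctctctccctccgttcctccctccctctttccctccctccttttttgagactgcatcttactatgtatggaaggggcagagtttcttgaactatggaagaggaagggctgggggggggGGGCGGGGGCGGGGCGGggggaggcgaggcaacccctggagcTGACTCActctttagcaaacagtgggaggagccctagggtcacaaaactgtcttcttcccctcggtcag
Anxa2: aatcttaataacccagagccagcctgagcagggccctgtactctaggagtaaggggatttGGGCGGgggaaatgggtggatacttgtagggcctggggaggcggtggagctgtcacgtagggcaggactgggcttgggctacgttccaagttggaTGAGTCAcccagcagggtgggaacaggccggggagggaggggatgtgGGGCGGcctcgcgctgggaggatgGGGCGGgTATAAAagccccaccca
The F3 window held AP-1 matches whose first bases lie 146 and 135 bases before the start and GC boxes at 89, 58 and 24. In the Plaur window an AP-1 match began 69 bases before the start and GC boxes at 111, 105 and 100, the last pair sharing a base. In the Anxa2 window an AP-1 match began 95 bases before the start, GC boxes at 190, 48 and 24, and a TATA box at 17. No match to the NF-kB consensus, spelled GGGRNNYYCC (R is A or G, Y is C or T, N is any base), lay on either strand of these windows. Other spellings of an NF-kB site were not searched, so the absence holds for these letters only. Of all 32851 windows of that length, 6.75% held the AP-1 letters, 32.7% the GC box, 12.4% the TATA box and 7.25% the NF-kB consensus. Of the 6 matched genes, 4 had a window with the AP-1 letters and 6 one with the GC box. The TATA box was found for 2 and the NF-kB consensus for 0. By window these were 4, 7, 2 and 0 of 9, since some genes have several. The shares of all windows are counted by window too. The windows of Tfpi and Serpine2, not shown, held no AP-1 match. This is a description of these letters and shows no binding.

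Levels are log2 signals with the array's own 75th percentile set to 0, and each difference is rhTM minus saline. All 10 cardiomyocyte markers, among them Myh6 and Tnnt2, were well above background on all 6 arrays. Saline 1 and saline 2 shared 1 slide and scan day, and saline 3 lay on another with all rhTM arrays. With group alone, a difference between rhTM and saline is therefore partly mixed with one between slides, and these cannot be fully told apart. Over all 14701 genes tested, limma called 405 higher and 355 lower at an adjusted p under 0.05, and these counts rested on single arrays (0 without rhTM 1, with 2585 at an unadjusted p under 0.05, and 5815 without saline 3). The groups did not overlap in 35.7% of the genes tested.

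Of the 9 genes, 8 were tested and Tfpi2 was not, since its probe was too dim. Plat was the single one called, and it was lower. That is 1 of 8, against 2.41% of all genes called lower, 2.75% called higher and 5.17% called in either direction. The differences of 4 genes lay above 0 and of 4 below 0. Their median difference was 0.03, against 0.01 over all genes tested. The groups did not overlap for 3 of the 8 (Tfpi, Plat and Plaur), a share near the 35.7% of all genes. By probe, 12 of the 14 were tested, 1 was called against 3.56% of all 30322 probes tested, and 6 had groups that did not overlap, against 34.1% of all probes. Because whole hearts were measured, fewer cells of a type and less RNA per cell cannot be told apart in any of these values.

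**Figure D1:**
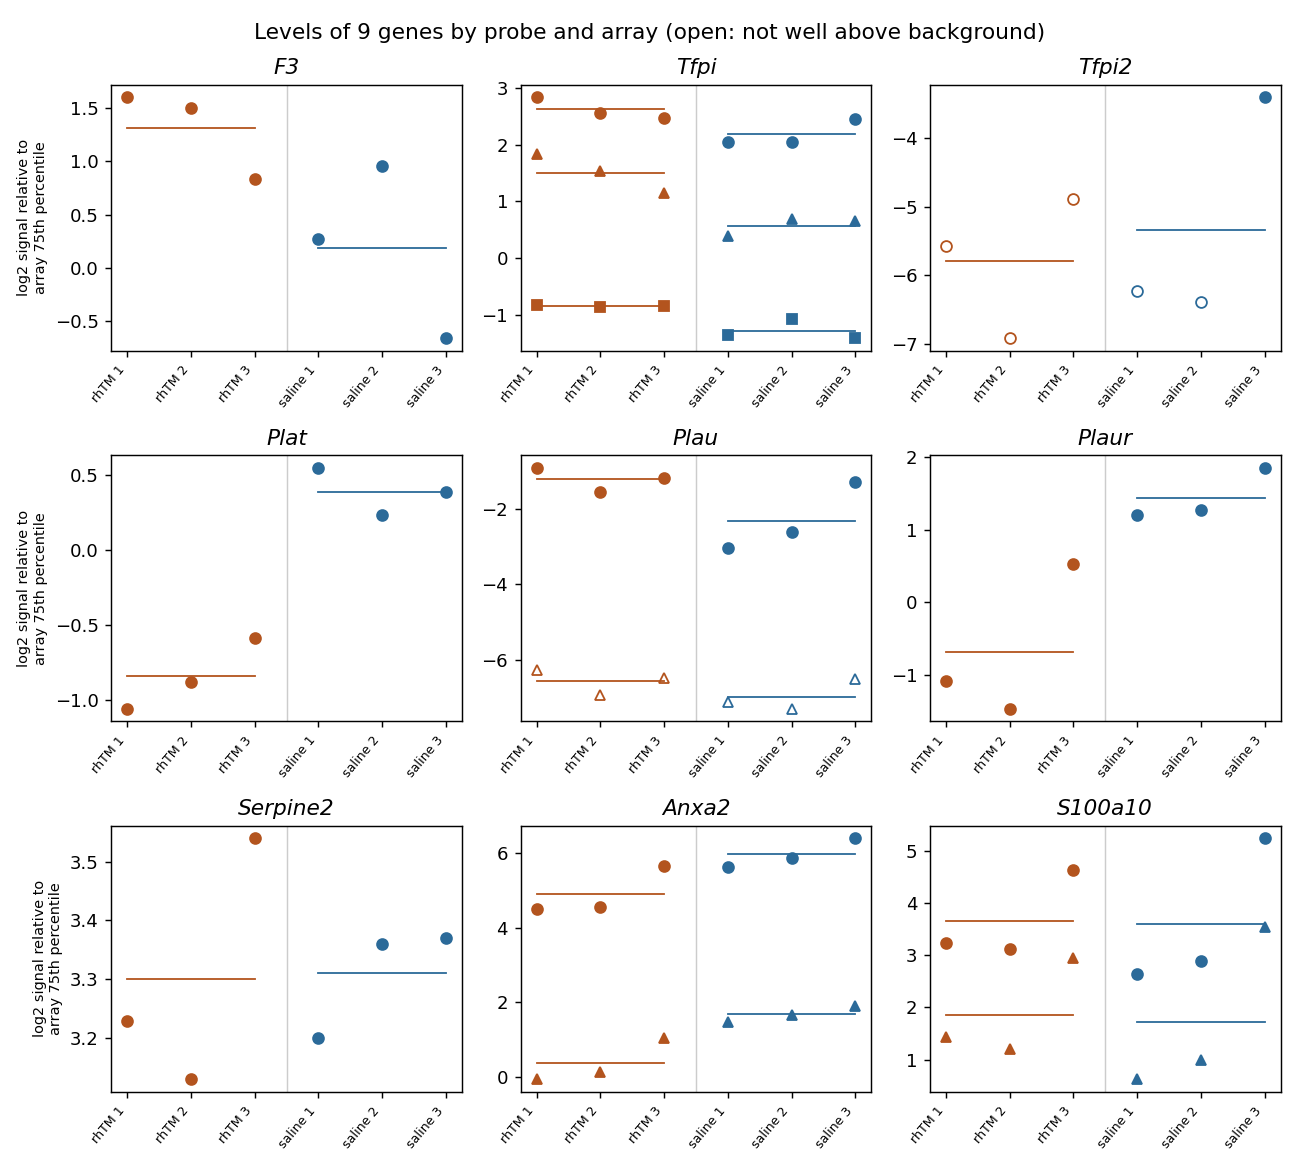
Level of each gene by array (log2 signal relative to the array's 75th percentile), with a panel per gene, rhTM arrays on the left and saline arrays on the right of each panel; circles, triangles and squares are different probes of a gene, lines are group means, and open symbols were not well above background. Plat and Plaur lie lower on every rhTM array than on any saline array, and for S100a10 the 2 highest arrays are rhTM 3 and saline 3.

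Tissue factor was the initiator measured. Its F3 level was 1.60, 1.50 and 0.83 on the log2 scale in rhTM 1, 2 and 3, against 0.27, 0.95 and -0.66 in saline 1, 2 and 3. The groups overlapped, because rhTM 3 lay below saline 2, and saline 3 was the lowest of the 6. The difference was 1.12 ± 0.44 (SE, n = 3 and 3, 2.17-fold higher), with a 95% interval of 0.07 to 2.17, and it did not pass (limma adjusted p = 0.146). Against saline 3 alone, on the shared slide, the difference was 1.97 ± 0.41 (limma blocked on the slide, adjusted p = 0.0563), and without saline 3 it was 0.70.

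Tfpi, the inhibitor of the tissue factor complex, was read by 3 probes that all lay higher in every rhTM heart. Its brightest probe, A_55_P2506165, had log2 levels of 2.84, 2.55 and 2.47 in rhTM 1, 2 and 3, against 2.04, 2.04 and 2.46 in saline 1, 2 and 3. The groups were apart only narrowly, since saline 3 lay just below rhTM 3. This probe, which stands for the gene, differed by 0.44 ± 0.21 (1.36-fold higher, limma adjusted p = 0.208, interval -0.07 to 0.95). Within the slide it differed by 0.16 ± 0.21 (limma adjusted p = 0.622), and in the deposited value table by 0.05 ± 0.15. The probe A_52_P670263, designed on another transcript (NM_001177319 rather than NM_011576), was at 1.84, 1.53 and 1.15 in rhTM 1, 2 and 3, against 0.38, 0.68 and 0.65 in saline 1, 2 and 3. Its groups were clearly separated and it differed by 0.93 ± 0.24 (1.91-fold higher), with an adjusted p = 0.0800 in the limma fit over all probes and 0.85 ± 0.31 within the slide. The probe A_52_P631889 was at -0.83, -0.86 and -0.84 in rhTM 1, 2 and 3, against -1.36, -1.07 and -1.42 in saline 1, 2 and 3. It differed by 0.44 ± 0.19 (adjusted p = 0.185 over all probes), by 0.57 ± 0.20 within the slide, and its rhTM values were nearly equal. Without saline 3, Tfpi passed at gene level (0.58, limma adjusted p = 0.0404), in a fit where 39.6% of all genes passed.

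Tfpi2, a related Kunitz-type inhibitor that acts on plasmin, was close to the limit of the array. Its probe stood well above background on 0 of 3 rhTM arrays and on 1 of 3 saline arrays. The log2 levels were -5.57, -6.92 and -4.88 in rhTM 1, 2 and 3, against -6.23, -6.39 and -3.40 in saline 1, 2 and 3. Saline 3 was the array above background, and no fold is given.

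Plat, the tissue-type plasminogen activator that is released largely by endothelium, fell by 1.23 ± 0.21 on the log2 scale with rhTM (2.35-fold lower, 95% interval -1.72 to -0.74, limma adjusted p = 0.0352). Its level was -1.06, -0.88 and -0.59 in rhTM 1, 2 and 3, against 0.55, 0.23 and 0.39 in saline 1, 2 and 3. Every rhTM heart lay below every saline heart, and the spread within each group (SD 0.24 in rhTM and 0.16 in saline hearts) was small beside the difference. Against saline 3 alone the difference was again -1.23. Blocking on the replicate number (limma adjusted p = 0.0524) or on the slide (0.0559, with 5.78% of all genes called) ended the call. It was also lost without rhTM 1, rhTM 2, saline 1 or saline 2 (differences -1.12, -1.21, -1.15 and -1.31, limma adjusted p = 0.177, 0.200, 0.143 and 0.0817). It held without rhTM 3 (-1.36, limma adjusted p = 0.0341, with 6.08% of all genes called) and without saline 3 (-1.23, 0.0093, with 39.6% called). Without saline 3 the groups lay on different slides, so group and slide cannot be told apart in that fit. In size, 10.9% of all genes tested had a larger absolute difference. Plat was read by 1 probe, A_52_P409833. Of 8 endothelial markers 0 were called, with 6 differences below 0 and 2 above, from -1.17 (Cldn5) and -1.08 (Pecam1, -0.32 against saline 3) to 0.57 (Kdr), and a median of -0.22. The list's mean log2 level was 2.11 to 2.22 in rhTM hearts, against 2.30 to 2.65 in saline hearts. The part of endothelial RNA in the Plat difference was not tested.

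Plau, the urokinase-type activator, had a difference of the opposite sign to that of Plat. Its log2 level was -0.89, -1.53 and -1.17 in rhTM 1, 2 and 3, against -3.02, -2.60 and -1.28 in saline 1, 2 and 3. Saline 3 lay among the rhTM arrays, so the groups overlapped, and saline 1 and 2 were the lowest. The difference of 1.10 ± 0.46 (2.15-fold higher) did not pass (limma adjusted p = 0.164), and against saline 3 on the same slide it was 0.08 ± 0.31 (interval -0.71 to 0.87). Without saline 3 it was 1.62 and passed (limma adjusted p = 0.00786), in a fit where 39.6% of all genes passed. The difference thus lay between the rhTM arrays and saline 1 and 2 on the other slide. A further Plau probe, A_51_P305311, stood well above background on no array.

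Plaur, the urokinase receptor of leukocytes and activated endothelium, had the largest difference of the 8 tested genes. Its log2 level was -1.09, -1.47 and 0.53 in rhTM 1, 2 and 3, against 1.21, 1.27 and 1.86 in saline 1, 2 and 3. The groups did not overlap, with rhTM 3 nearest to the saline hearts and saline 3 the highest. The difference was -2.12 ± 0.53 (4.35-fold lower, 95% interval -3.39 to -0.85), and 3.05% of all genes tested had a larger one. It missed the threshold (limma adjusted p = 0.0680). It passed with replicate numbers blocked (limma adjusted p = 0.0466, with 4.07% of all genes called), and not with slides blocked (-2.53 ± 0.77, 0.102). Without rhTM 3 it was -2.72 and passed (limma adjusted p = 0.0211, with 6.08% of all genes called).

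Of the inhibitors of the activators, Serpine2, which encodes nexin-1, had nearly equal means (3.30 ± 0.21 in rhTM hearts and 3.31 ± 0.10 in saline hearts, SD, n = 3 each). Its log2 level was 3.23, 3.13 and 3.54 in rhTM 1, 2 and 3, against 3.20, 3.36 and 3.37 in saline 1, 2 and 3. The difference was -0.01 ± 0.19, and its 95% interval of -0.47 to 0.45 leaves out changes beyond 0.47 on the log2 scale in this fit (limma adjusted p = 0.975). Its sign turned with the median of the genes tested as centre (0.07).

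**Figure D2:**
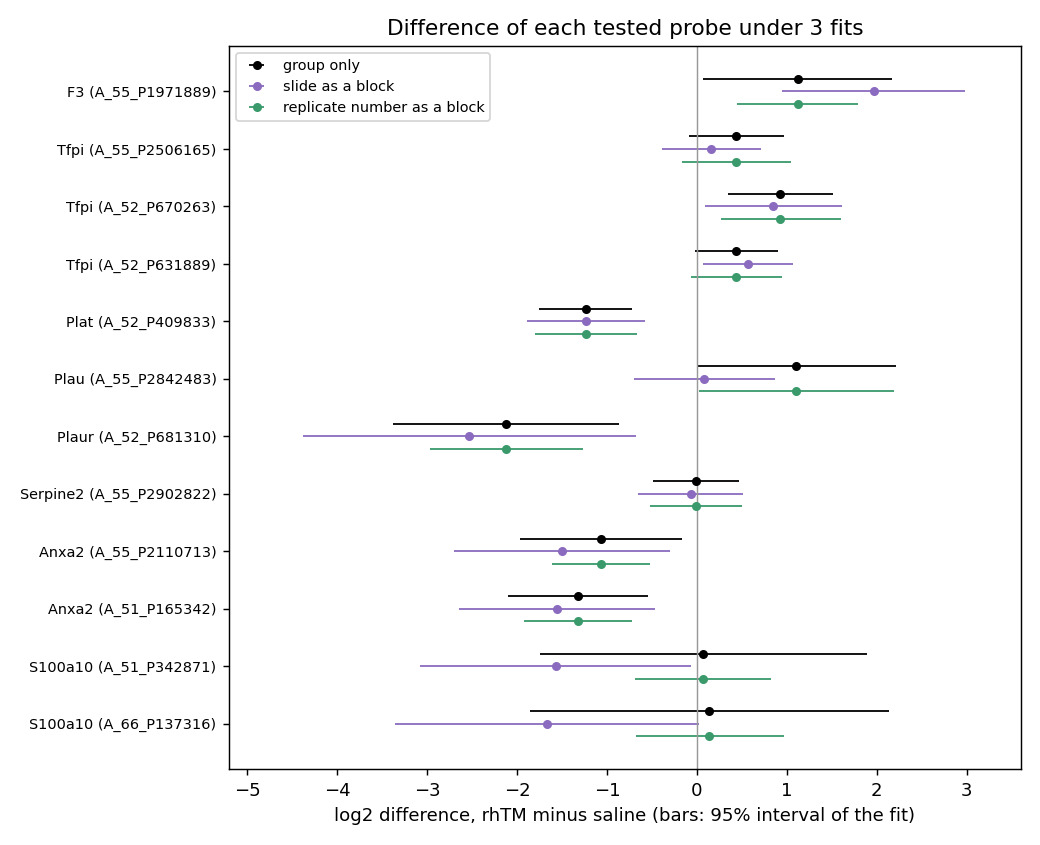
Log2 difference, rhTM minus saline, of each of the 12 tested probes (points) with the 95% interval of the fit (bars), for group alone, for a fit blocked on the slide and for a fit blocked on the replicate number. Blocking on the replicate number leaves the difference of every probe as for group alone, since each number holds an array of each group. Blocked on the slide, Plat lies at -1.23, as for group alone, Plau at 0.08, against 1.10, and S100a10 at -1.57, against 0.07.

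Anxa2 and S100a10 encode the partners of the cell-surface plasminogen receptor complex and are given in turn. The brighter Anxa2 probe, A_55_P2110713, was at 4.50, 4.57 and 5.66 in rhTM 1, 2 and 3, against 5.63, 5.88 and 6.41 in saline 1, 2 and 3. The groups overlapped narrowly, with rhTM 3 just above saline 1. It differed by -1.06 ± 0.38 (2.09-fold lower, interval -1.97 to -0.16, limma adjusted p = 0.125) and by -1.50 ± 0.49 within the slide. The dimmer Anxa2 probe, A_51_P165342, was at -0.07, 0.12 and 1.03 in rhTM 1, 2 and 3, against 1.47, 1.65 and 1.91 in saline 1, 2 and 3. There the groups were apart and the difference was -1.32 ± 0.33, which did not pass over all probes (limma adjusted p = 0.0735).

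S100a10 was at 3.24, 3.11 and 4.63 in rhTM 1, 2 and 3, against 2.64, 2.88 and 5.24 in saline 1, 2 and 3. The highest arrays were rhTM 3 and saline 3, so the spread lay within the groups (SD 0.84 in rhTM and 1.43 in saline hearts). Its other probe, A_66_P137316, gave the same order, at 1.44, 1.20 and 2.95 in rhTM 1, 2 and 3, against 0.62, 1.00 and 3.53 in saline 1, 2 and 3. The gene's difference was 0.07 ± 0.76 (limma adjusted p = 0.956), and its interval of -1.76 to 1.91 covers a change of several fold either way. Its direction rested on single arrays, being 0.90 without saline 3 and -1.57 against saline 3 alone, and neither passed (limma adjusted p = 0.196 and 0.159).

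Markers of neutrophils, leukocytes that carry the urokinase receptor, also varied within the groups. The mean log2 level of the 9 markers with a probe was -2.33, -2.81 and 1.84 in rhTM 1, 2 and 3, against 0.49, 1.26 and 3.01 in saline 1, 2 and 3. As for S100a10, rhTM 3 and saline 3 were the highest arrays. Of these, the granule protein genes Ngp and Ltf were not well above background on rhTM 1 and 2, nor Ltf on saline 1. By limma 0 of the 8 tested were called, and blocked on the replicate number Retnlg passed (-4.66, adjusted p = 0.0466). The median difference of the 8 was -3.46, with 7 below 0 and 1 above (Csf3r, 0.18). Plaur and Anxa2 were likewise highest of their group on rhTM 3 and saline 3, and F3 was lowest of its group on those arrays. The part of neutrophil RNA in these levels was not tested. The monocyte and macrophage list, with 0 of 10 called, had a mean of 0.78 to 1.40 in rhTM hearts, against 0.24 to 1.18 in saline hearts. Of the other lists, fibroblast (8 tested), mesothelial (6) and T and NK cell markers (5) had 0 called. With the slide as a block, Dpt of the fibroblast list passed (1.47 ± 0.17, against 0.52 ± 0.40 for group alone). Blocked on the replicate number, Ccr2 of the monocyte list (limma adjusted p = 0.0391) and Lum of the fibroblast list (0.0431) passed, both higher, with Ccr2 well above background on 1 of 3 saline arrays. In the smooth muscle and pericyte list Acta2 and Pdgfrb were lower and Rgs5 higher among 7, of the platelet markers Gp9 was higher among 4, and of the cardiomyocyte markers Pln was higher among 10. The Acta2, Pdgfrb and Rgs5 calls were lost blocked on the slide (limma adjusted p = 0.0605, 0.0686 and 0.0895), and those of Pdgfrb and Rgs5 also blocked on the replicate number (0.0554 and 0.0609). Other Acta2 probes differed by 0.28 and by -1.44, against -1.55 for the probe that stands for the gene.

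**Figure D3:**
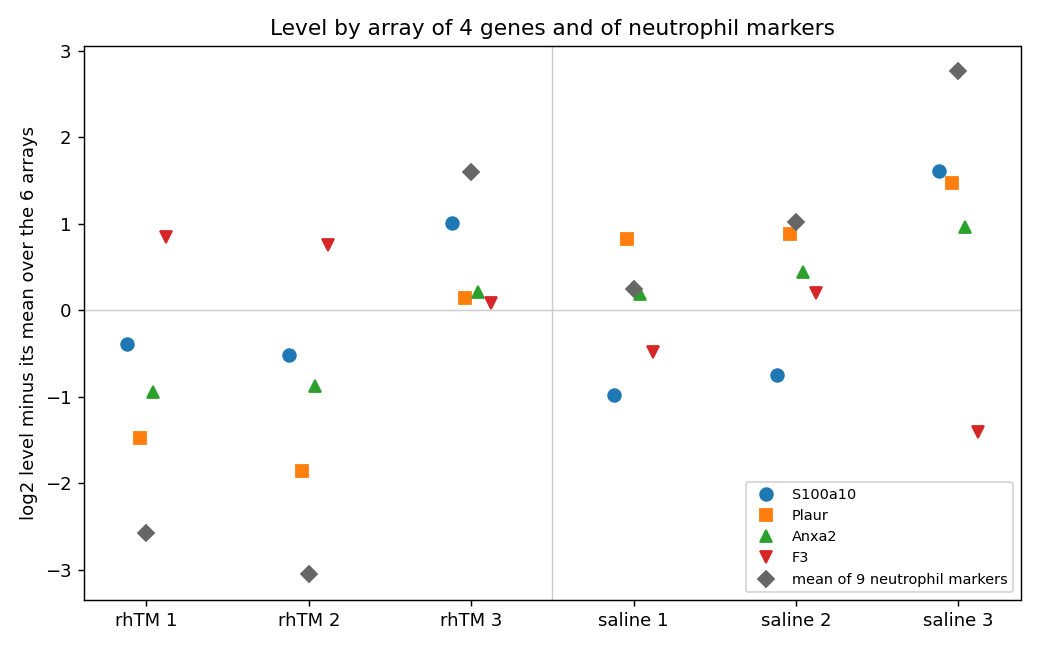
Level of S100a10, Plaur, Anxa2 and F3 and mean level of 9 neutrophil markers on each array, each as log2 level minus its own mean over the 6 arrays, with rhTM arrays left of saline arrays. The neutrophil mean, S100a10, Plaur and Anxa2 are highest on rhTM 3 and saline 3 within their groups, and F3 is lowest there.

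The wider plasminogen list held 16 further genes, of which 9 were tested and 0 were called by limma in either direction, against 5.17% of all genes. Their median difference was -0.42 over those tested, with 7 below 0 and 2 above. The members named here are Lrp1, the endocytic receptor that clears activator and inhibitor complexes (-1.38 ± 0.32, limma adjusted p = 0.0561), Eno1, an enolase that also binds plasminogen (-0.49 ± 0.17, 0.120), and Mrc2, a collagen receptor linked to the urokinase receptor (-0.61 ± 0.22, 0.129). Lrp1 was at 0.72, 1.01 and 1.33 in rhTM 1, 2 and 3, against 2.65, 2.76 and 1.79 in saline 1, 2 and 3, so that the groups were apart, and its difference within the slide was -0.78 ± 0.27. Without saline 3, Lrp1 and Mrc2 passed (limma adjusted p = 0.00499 and 0.0450), in a fit where 39.6% of all genes passed. With the slide as a block, which sets the rhTM arrays against saline 3 alone, Vtn (1.57 ± 0.28) and Pdgfc (-1.08 ± 0.20) of this list passed. With group alone these genes differed by 0.15 and -0.14. Plasminogen itself (Plg), its inhibitor Serpinf2 and F12 stood well above background on no array.

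The list of clotting factors and their regulators held 21 genes, of which 8 were tested and 0 were called by limma, against 5.17% of all genes, with a median difference of -0.45 over those tested. The smallest p-values were those of the thrombin receptor F2r (-0.71 ± 0.20, limma adjusted p = 0.0873), Serpind1, the inhibitor heparin cofactor II (-1.77 ± 0.82, 0.197), factor X, F10 (-2.35 ± 1.11, 0.201), and von Willebrand factor, Vwf (-0.89 ± 0.43, 0.210). F10 was at -3.23, -3.27 and 0.57 in rhTM 1, 2 and 3, against -0.64, 0.30 and 1.47 in saline 1, 2 and 3, which again placed rhTM 3 and saline 3 at the top of their groups. Blocking on the replicate number made Serpind1 pass (limma adjusted p = 0.0391), but on rhTM 2 it was not well above background, so that its difference rests in part on a value with only a bound. F2r and Vwf passed without saline 3 (limma adjusted p = 0.0428 and 0.0104), where the groups lay on different slides and 39.6% of all genes passed. F10 passed without rhTM 3 (0.0392), where 6.08% of all genes passed. The Vwf difference against saline 3 alone was 0.06. The genes of prothrombin (F2), factor IX (F9), factor XI (F11), 2 of the 3 fibrinogen chains (Fgb and Fgg), F13b, Proz and F2rl1 stood well above background on no array.

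The genes whose levels over the 6 arrays most resembled Plat, by the root mean square difference of centred log2 levels, were Mafk (0.062), a small Maf transcription factor, Entpd1 (0.073), the ectonucleotidase CD39, and Abhd6 (0.073), a lipid hydrolase. Those most like F3 were Oxct1 (0.125), an enzyme of ketone use, Hmcn1 (0.126), a matrix protein, and Eepd1 (0.130). They were chosen for their likeness, so their own group differences are no further test.

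**Figure D4:**
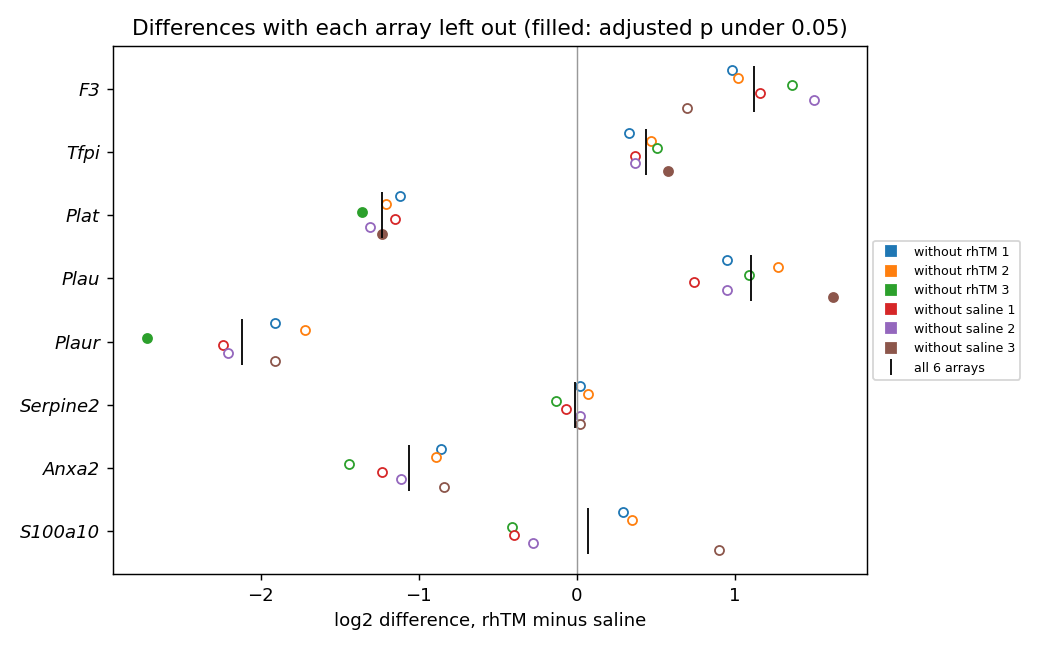
Log2 difference, rhTM minus saline, of the 8 tested genes with all 6 arrays (black line) and with each array left out in turn (circles, filled where the adjusted p was under 0.05). Plat stays between -1.36 and -1.12, Plaur between -2.72 and -1.72, and S100a10 crosses 0, between -0.41 and 0.90.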

How the data were processed

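Cy3-labelled cRNA from 6 hearts (3 rhTM, 3 saline, grouped by sample title) was hybridised to 1-colour Agilent arrays. The authors deposited scanner files of intensity values, of which the background-corrected processed signal, not normalised between arrays, was used. The extraction software was Agilent's, in version 10.7.3.1 per the file headers (9.1 per the submitters' processing notes). A deposited table of log2 values comes with no stated centring. Compared with the scanner values, its baseline per probe was shared within a slide (the offset had an SD of 1.89e-05 across probes for saline 1 against 2) and differed between slides (0.825). Its column medians were -0.08, 0.03 and 0.09 for rhTM 1, 2 and 3 and -0.02, -0.16 and 0.10 for saline 1, 2 and 3, and it served only as an alternative.

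Processed signals were scaled to each array's 75th percentile and taken to log2. After removal of control spots, 368 of 56605 probes were dropped for outlier flags, and 0 spots were saturated. Probes were named through RefSeq accessions (assembly GRCm38.p6): 32789 matched a symbol and 23448 did not. The files hold no probe coordinates or sequences that were used here. Each gene was represented by its brightest probe, and genes well above background on all 3 arrays of a group were tested with limma 3.58.1 in R 4.3.3 (lmFit, eBayes), with Benjamini-Hochberg adjustment over all genes tested. The 30322 probes that passed the same filter were also fitted, with adjustment over all of them. The script was tested on simulated data. The number of arrays, 3 per group, limits the precision. As a measure of detection, 54.8% to 62.8% of 59305 spots per array were well above background.

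The genes, the 2 pathway lists and 9 marker lists, and the rule for named genes (all 9 genes, called list genes and up to 4 per pathway list by p, and 3 genes most like Plat and F3) were chosen with earlier results of these data known. One result that the rule names in the plasminogen list is not reported here. Arrays that share a replicate number deviated from their group means together, with r = 0.319, 0.235 and 0.372 across genes for numbers 1, 2 and 3. Since each exceeds 0.1, the number was fitted as a block in an alternative, while the main fit held group only. Arrays of unlike number also exceeded 0.1, as rhTM 1 did with saline 2 (0.129). The array rhTM 2 correlated more with saline 1 (0.314) than with saline 2. The labels name no shared litter or day. Alternatives were other normalisations and filters, the slide or the replicate number as a block, array weights, the deposited table and leaving out each array.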

Additional observations from a re-analysis of the deposited data

How the results depend on the processing

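Counts of calls moved more than the differences. Of all genes, 760 were called (405 higher and 355 lower, against 483 and 268 with median centring), against 151 with no filter on dim probes, 9244 with array weights, 4519 with the deposited value table, and 0 to 5815 with 1 array left out. Of the 9 genes, 0 were called higher, against 3 with array weights, 1 with the deposited table and 0 to 2 with 1 array left out (Tfpi and Plau, without saline 3). There was 1 called lower (Plat), against 0 with no filter on dim probes, 0 with the slide as a block, 3 with array weights (Plat, Plaur and Anxa2), 4 with the deposited table and 0 to 2 with 1 array left out. With the replicate number as a block 599 genes were called and 1 of the 9, which was Plaur rather than Plat (adjusted p = 0.0466 and 0.0524), and it changed the call of no other of the 9 genes. Of the 14 probes 12 were tested and 1 was called, with 3.56% of all probes tested called. With no filter on dim probes, the slide block and the replicate block 0 were called (0.37%, 4.72% and 1.12% of all probes). It was 9 with array weights (61.9% of all probes), 7 with the deposited table (24.7%) and 0 to 6 with 1 array left out. The 6 were without saline 3, where 40.3% of all probes were called. The S100a10 difference of 0.07 reversed to -1.57 with the slide as a block and to -1.39 with the deposited table (limma adjusted p = 0.0437), and ranged from -0.41 to 0.90 with 1 array left out. That of Serpine2, -0.01, reversed to 0.07 with median centring and ranged from -0.13 to 0.07 with 1 array left out. F3, Tfpi, Plat, Plau, Plaur and Anxa2 kept their direction under all 16 alternatives. Among these, the replicate block and the filters on dim probes leave each gene's difference as it was, so they could not turn it. For genes with 1 probe, neither could the mean of all probes. The deposited table is not on 1 baseline across slides. The files hold no mean spot signal, so normexp was run on median signals instead, an alternative chosen after seeing the data, as were all alternatives by probe. Quantile normalisation, with and without normexp, median centring, all probes averaged and probes above background on all 6 arrays changed no call of the 9 genes. The cause of the other changes was not tested.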
